A study of Homo sapiens with 4 samples.

Results

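The genes examined here encode lysosomal cathepsins, the protease legumain and cystatin C, a protein that inhibits cathepsins. They were chosen by name, with earlier results of these data known, as CTSA, CTSB, CTSC, CTSD, CTSH, CTSL, CTSS, CTSZ, LGMN and CST3. Values were found for 8 of these 10 genes among the 18567 genes of the expression table, whereas CTSL and LGMN were not analysed here. All 8 passed the filter on low values and were tested.

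RNA was sequenced from 4 samples of Kasumi-1, an established human acute myeloid leukemia (AML) cell line that carries the RUNX1-RUNX1T1 fusion. The NC group held 2 samples, described in the labels as untreated and without shRNA, although the study's methods list a control hairpin (sh-NC). The sh-ANP32B group held 2 samples with knockdown of ANP32B by lentiviral short hairpin RNA, and which of the study's hairpins each sample carried is not given. If the NC samples carried no hairpin, infection and puromycin selection cannot be told apart from the knockdown. Nothing states whether the samples of a group came from separate cultures, so p-values measure the spread between these samples, which may be technical.

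Cathepsins are made as inactive precursors, carried to the lysosome largely by mannose 6-phosphate receptors and activated there at low pH. Most belong to the papain family of cysteine proteases (CTSB, CTSC, CTSH, CTSL, CTSS and CTSZ), while CTSD is an aspartic protease and CTSA a serine carboxypeptidase. In myeloid cells they degrade engulfed and autophagic material, trim antigens for MHC class II and mature the serine proteases of the granules. Cystatin C is a secreted protein that blocks papain-family proteases.

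Values are TPM, which divide the reads of a gene by transcript length and by the total of the sample, so levels can be compared between genes. TPM keep no sequencing depth, so the depth behind each value is unknown. TPM are shares of a sample, so more transcript per cell and more cells with the transcript cannot be told apart. Each fold change is a difference of log2(TPM + 1), sh-ANP32B minus NC, which understates changes of low genes. A gene was called when its adjusted p was under 0.05 in limma, fitted over all 16817 genes that reached 1 TPM in 2 or more samples.

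The labels were checked first with ANP32B, which had 383.8 and 392 TPM in the NC samples but 51.8 and 41.2 TPM after knockdown (log2 fold change -3.04, SE 0.150, limma adjusted p 0.00516). Of 7 markers fixed for Kasumi-1 myeloblasts, RUNX1 had 120.5 to 142.6 TPM, RUNX1T1 15.6 to 31.2 TPM, CD33 58.5 to 70.1 TPM and PTPRC 113.1 to 203.3 TPM, but KIT had only 1.55 to 3.41 TPM, and CD34 and MPO were not analysed here. None of these 5 markers was called by limma, and 2 of them, RUNX1T1 and PTPRC, had an unadjusted p under 0.05. Monocyte and macrophage markers were low, with a summed level of 4.14 to 9.45 TPM over 2 of 5 genes (MARCO and CSF1R). The endothelial and leukocyte marker PECAM1, the single one of 6 stromal and epithelial markers with a value, had 34.9 and 37.8 TPM in the NC samples against 58.7 and 45.4 TPM after knockdown, and its part in any result was not tested. The 5 erythroid markers were not analysed here. The share of mitochondrial transcripts was 12.9% and 13.1% in NC, 11.4% in sh-ANP32B replicate 1 and 8.43% in replicate 2.

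Knockdown of ANP32B was accompanied by higher levels of CTSA, CTSB and CTSD, with 1.92, 1.64 and 1.95 times the NC mean, respectively. These 3 of the 8 genes tested were called higher, where 2.14% of all tested genes were, and 0 were called lower, where 1.18% of all tested genes were. Since the list was chosen with earlier results of these data known, such shares describe it and do not test it. At an unadjusted p under 0.05 by limma, 4 of the 8 were higher and 0 lower, a threshold that 3995 of 16817 tested genes passed in either direction. At an adjusted p under 0.05, calls in either direction made up 3.32% of all tested genes. CTSS was added by the looser criterion of the study (log2 fold change beyond 0.5, p under 0.05 before adjustment), which 4 of the 8 genes passed upward, against 12.1% of all tested genes, and 0 downward, against 6.55%, while CTSC, CTSH, CTSZ and CST3 passed neither. The median log2 fold change was 0.54 over the 8 genes and 0.08 over all genes tested. Without sh-ANP32B replicate 2 the median over the 8 genes was 0.35, and without replicate 1 it was 0.66.

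**Figure D1:**
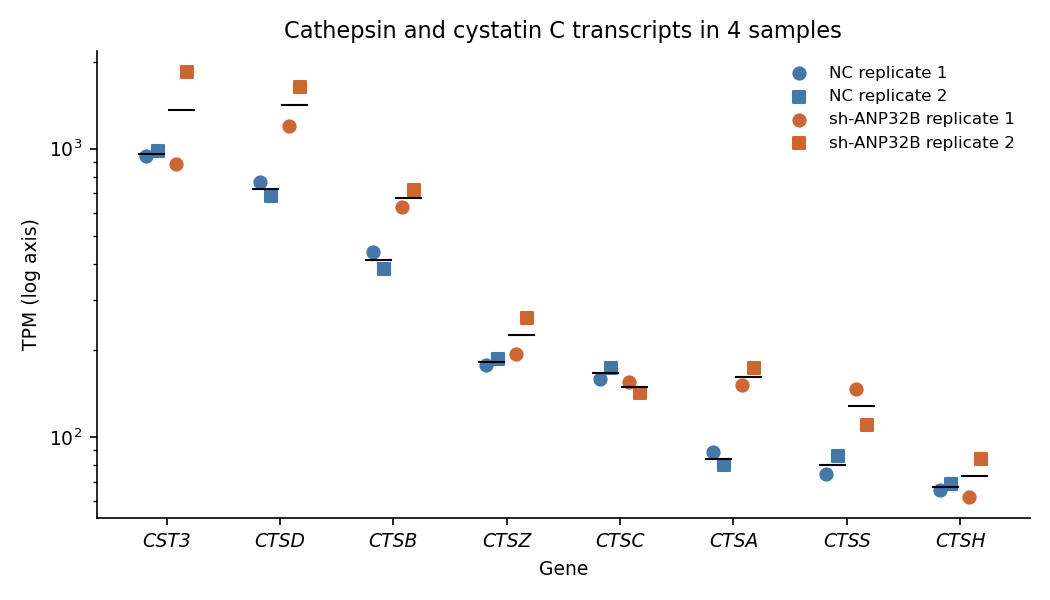
TPM on a log axis for the 8 genes with a value, ordered by their NC mean, with circles for replicate 1, squares for replicate 2, blue for NC, orange for sh-ANP32B and a bar at each group mean. For CTSD, CTSB, CTSZ, CTSA and CTSS both sh-ANP32B samples lay above both NC samples. For CST3 the sh-ANP32B samples lay on either side of NC at 882 and 1845 TPM.

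In NC the levels followed the order CST3, CTSD, CTSB, CTSZ, CTSC, CTSA, CTSS and CTSH. The samples of neighbours in this order overlapped for CTSA and CTSS only. In sh-ANP32B the means of CTSD and CST3 exchanged places, and their samples overlapped. CTSA moved above CTSC there, also with overlapping samples. The 8 genes together summed to 2714 and 2640 TPM in NC and to 3414 and 4970 TPM in sh-ANP32B. Both sh-ANP32B samples were above both NC samples in this sum, by a ratio of means of 1.57. The log2 ratio of the sum was 0.65, and it was 0.35 without sh-ANP32B replicate 2 and 0.89 without replicate 1.

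CTSD (ENSG00000117984) encodes the main aspartic endopeptidase of the lysosome and is located at chr11:1752752-1764573 (hg38, minus strand). NC replicates 1 and 2 had 765.3 and 683.5 TPM of CTSD, and the knockdown samples 1197 and 1636 TPM in the same order. The groups did not overlap, and the sh-ANP32B samples differed from each other more than the NC samples did. The mean went from 724 ± 57.8 to 1416 ± 311 TPM (SD, n = 2 each), which on the log2 scale is a difference of 0.95 ± 0.175 (SE) with an adjusted p of 0.0448 by limma. CTSD ranked 159 and 171 among all 18567 genes in NC and 93 and 72 in sh-ANP32B. It supplied 43.2% and 41.2% of the summed level of the 7 proteases in NC, and 47.2% and 52.3% in sh-ANP32B. Transcripts annotated as lncRNA overlap CTSD, at low levels beside it. ENSG00000229512, on the same strand, had 7.07 and 4.77 TPM in the NC samples against 16.8 and 25.8 TPM after knockdown. PRADX, on the opposite strand, had 4.10 and 3.88 TPM against 9.68 and 16.6 TPM. The protein-coding ENSG00000250644 also overlaps on the same strand and was not analysed here. Since no source says how reads in these overlaps were counted, the value of CTSD is uncertain to that extent.

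CTSA (ENSG00000064601) encodes a carboxypeptidase that also holds beta-galactosidase and neuraminidase in a stable complex. It is located at chr20:45890144-45898949 (plus strand). CTSA had 88.9 and 79.8 TPM in the NC samples against 151 and 173 TPM after knockdown. Both sh-ANP32B samples were above both NC samples, and the replicates lay close together in each group. The mean went from 84.3 ± 6.39 to 162 ± 15.6 TPM (SD, n = 2 each), which on the log2 scale is a difference of 0.93 ± 0.140 (SE) with an adjusted p of 0.0354 by limma. PLTP overlaps CTSA on the opposite strand with 107 to 150.1 TPM, and since no source says if reads were counted by strand, the value of CTSA is uncertain to that extent. The partners of CTSA were not called, with 248 and 246 TPM in the NC samples against 277 and 273 TPM after knockdown for the beta-galactosidase GLB1 (log2 fold change 0.16, SE 0.117) and 2.19 to 6.79 TPM for the neuraminidase NEU1 (0.07, SE 0.486).

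CTSB (ENSG00000164733) encodes a papain-family protease that cuts within proteins and also removes dipeptides from their carboxyl end. It is located at chr8:11842524-11869533 (minus strand). CTSB had 438.7 and 381.8 TPM in the NC samples against 626.7 and 720.2 TPM after knockdown. The groups did not overlap. The mean went from 410.3 ± 40.2 to 673 ± 66.1 TPM (SD, n = 2 each), which on the log2 scale is a difference of 0.71 ± 0.139 (SE) with an adjusted p of 0.0482 by limma. CTSB supplied 47.8% and 42.6% of the summed level of the 5 papain-family genes in NC, and 52.9% and 54.7% in sh-ANP32B.

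The calls of CTSA, CTSB and CTSD were close to the threshold. Without NC replicate 1 their limma adjusted p was 0.0663, 0.193 and 0.0574, and without NC replicate 2 it was 0.171, 0.449 and 0.164, so that 0 of the 8 genes were called in either fit. Without sh-ANP32B replicate 1 the count was 6, with CTSS, CTSZ and CST3 added, and without replicate 2 it was 4, with CTSS added. After median-of-ratios scaling only CTSA stayed under 0.05, with a limma adjusted p of 0.0412, and without the abundance trend none of the 3 did. CTSB also lost its call with a pseudocount of 0.1 (limma adjusted p 0.0522) and without the filter on low values (0.0505). Over the 12 other settings that kept all samples, CTSA was called in 11, CTSD in 9 and CTSB in 7.

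**Figure D2:**
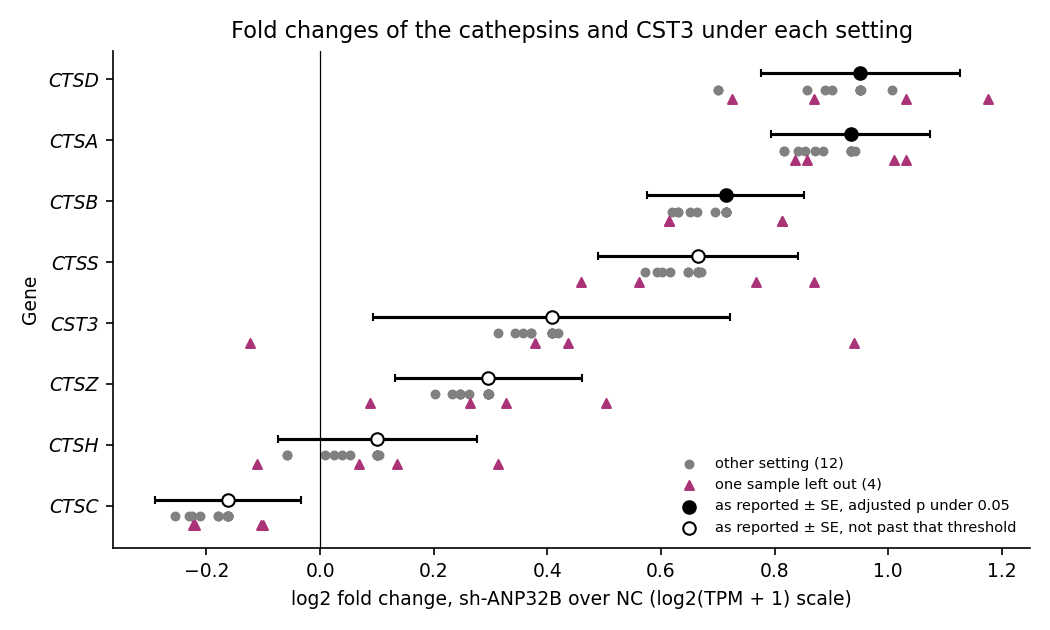
Log2 fold changes, sh-ANP32B over NC, with the reported value and its SE in black (filled where the adjusted p was under 0.05), 12 other settings of the analysis in grey and 4 fits that each left out a sample as triangles. CTSD, CTSA, CTSB, CTSS and CTSZ stayed above 0 in every fit and CTSC below 0. CST3 and CTSH reached -0.12 and -0.11 without sh-ANP32B replicate 2.

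The promoters of CTSA and CTSD are printed because both genes were called higher and their windows share a motif. Each sequence is 300 bases of RefSeq (GRCh38.p14), from 250 before the gene start to 50 after it, and capitals mark CACGTG with any flanking base that extends it to TCACGTG on either strand. The RefSeq starts of CTSA and CTSD lie within the spans given for these genes above.
CTSA, chr20:45891085-45891384, plus strand: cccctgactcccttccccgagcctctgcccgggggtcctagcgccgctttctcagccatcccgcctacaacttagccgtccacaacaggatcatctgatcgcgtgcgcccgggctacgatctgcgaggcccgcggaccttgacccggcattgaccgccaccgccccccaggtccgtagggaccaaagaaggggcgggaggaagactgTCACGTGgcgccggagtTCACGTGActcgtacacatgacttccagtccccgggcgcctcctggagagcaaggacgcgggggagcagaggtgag
CTSD, chr11:1763878-1764177, minus strand: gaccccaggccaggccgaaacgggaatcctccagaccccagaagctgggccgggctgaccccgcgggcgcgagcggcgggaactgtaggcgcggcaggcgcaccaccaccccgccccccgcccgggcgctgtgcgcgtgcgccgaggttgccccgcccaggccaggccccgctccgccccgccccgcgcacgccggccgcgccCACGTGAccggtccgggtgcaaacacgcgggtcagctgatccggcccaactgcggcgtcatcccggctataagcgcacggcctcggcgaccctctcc
CACGTG is the E-box read by MYC with MAX and by the MiT/TFE factors that govern lysosomal genes, and TCACGTG, which contains it, is the form these latter factors prefer. CTSA held the TCACGTG form at -43 and at -26 from the gene start, the second of which read TCACGTG on both strands. CTSD held it at -47 on the strand opposite to the printed sequence, which reads CACGTGA there. TCACGTG occurred in 2 of the 7 promoter windows found for the 10 genes, against 3.71% of all 35116 windows and 5.55% of the windows of tested genes. CACGTG occurred in the same 2 windows, against 7.26% of all windows and 9.80% of those of tested genes. Neither motif was found in the windows of CST3, CTSC, CTSH, CTSL and CTSZ, and the windows of CTSB, CTSS and LGMN were not analysed here. GGGCGG, the core of the GC box, occurred in all 7 windows, against 45.0% of all windows and 65.6% of those of tested genes. GAGGAA, a core of sites of the myeloid factor PU.1, occurred in 3, against 27.9% and 28.1%, and CCAAT in 2, against 34.6% and 34.7%. Each motif was searched on both strands. A match describes the letters of the window and not the binding of a factor.

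**Figure D3:**
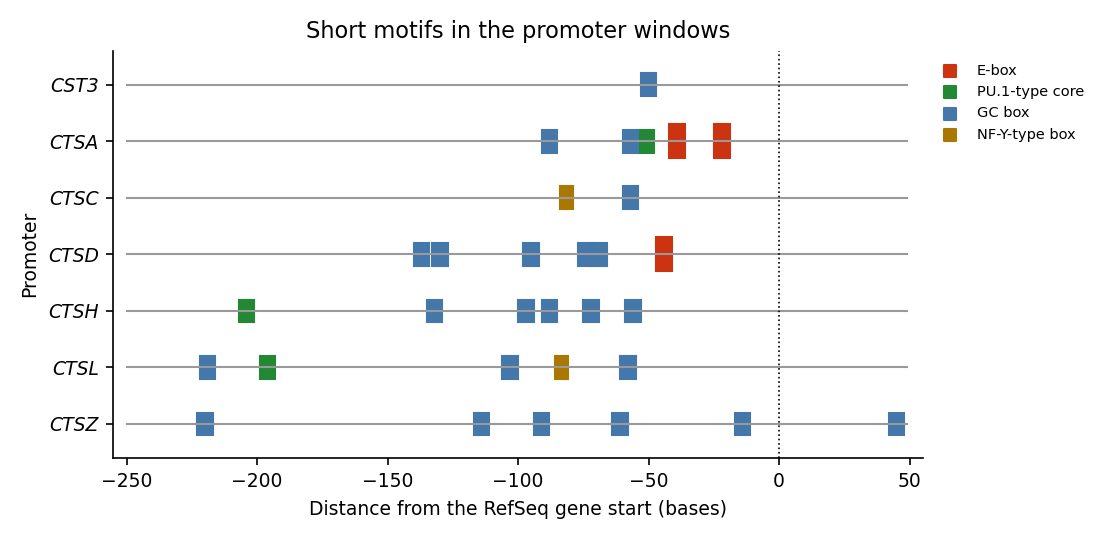
Positions of 4 short motifs on either strand, in bases from the RefSeq gene start, in the promoter windows of the 7 genes with a sequence. The E-box (red) is drawn in CTSA, at 2 positions, and in CTSD, at 1 position, and in none of the other 5 windows.

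Among the MiT/TFE factors, all 4 were tested, 2 were called higher and 0 lower. TFEB, the factor named as a main regulator of lysosomal genes, had 27.8 and 26.5 TPM in the NC samples against 49.8 and 71.6 TPM after knockdown (log2 fold change 1.11, SE 0.199, limma adjusted p 0.0440). TFE3, its close relative, had 27.5 and 28 TPM in the NC samples against 47.6 and 53.8 TPM after knockdown (log2 fold change 0.84, SE 0.149, limma adjusted p 0.0440). The groups did not overlap for either gene.

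CTSS (ENSG00000163131) encodes a cysteine endopeptidase that works at neutral pH and cuts the invariant chain CD74 in antigen-presenting cells. It is located at chr1:150730079-150765957 (minus strand). CTSS had 74.4 and 85.9 TPM in the NC samples against 147 and 110.3 TPM after knockdown. Both sh-ANP32B samples were above both NC samples, with replicate 1 the higher of them, opposite to CTSA, CTSB and CTSD. The mean went from 80.2 ± 8.12 to 129 ± 25.9 TPM (SD, n = 2 each), which on the log2 scale is a difference of 0.66 ± 0.176 (SE) with an adjusted p of 0.0883 by limma. CTSS was called under 4 of 12 other settings, among them the correction for GC content with a limma adjusted p of 0.0101. With that correction 2562 of 15427 genes were called in either direction, against 559 of 16817 without it. Its log2 fold change was 0.46 without sh-ANP32B replicate 1 and 0.87 without replicate 2.

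CTSZ (ENSG00000101160) encodes a carboxypeptidase that removes single residues, and it is located at chr20:58985686-59008238 (minus strand). CTSZ had 178 and 186 TPM in the NC samples against 194 and 259 TPM after knockdown. The groups did not overlap, but sh-ANP32B replicate 1 lay near NC. The difference was 0.30 ± 0.165 on the log2 scale (SE, limma adjusted p 0.331). Without sh-ANP32B replicate 1 it was 0.50, and without replicate 2 it was 0.09. NELFCD overlaps CTSZ on the opposite strand with 58.5 to 71.1 TPM.

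CTSH (ENSG00000103811) encodes an aminopeptidase and is located at chr15:78921058-78949574 (minus strand). CTSH had the lowest level of the 8 genes, with 65.7 and 68.9 TPM in the NC samples against 62.2 and 83.9 TPM after knockdown. The sh-ANP32B samples lay on either side of NC. The difference was 0.10 ± 0.175 on the log2 scale (SE, limma adjusted p 0.778), and the sign turned to -0.06 after correction for GC content and to -0.11 without sh-ANP32B replicate 2.

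CTSC (ENSG00000109861) encodes dipeptidyl peptidase I, which removes the propeptides of granule serine proteases. It is located at chr11:88265069-88359684 (minus strand). CTSC had 159.7 and 173 TPM in the NC samples against 155 and 142 TPM after knockdown, the single gene of the 8 with a lower mean after knockdown. The groups did not overlap, although they lay close together. The difference was -0.16 ± 0.128 on the log2 scale (SE, limma adjusted p 0.493). Its share of the summed level of the 5 papain-family genes was 17.4% and 19.3% in NC and 13.1% and 10.8% in sh-ANP32B. Groups that did not overlap were found for 6 of the 8 genes, against 54.6% of all tested genes. They were higher after knockdown for 5, against 33.2%, and lower for CTSC, against 21.4%.

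Of 10 serine proteases that CTSC matures 4 were tested, of which 1 was called higher and 0 lower. PRSS57, neutrophil serine protease 4, had 5.49 and 5.80 TPM in the NC samples against 12.6 and 20.1 TPM after knockdown (log2 fold change 1.35, SE 0.257, limma adjusted p 0.0468). The 3 far more abundant proteases, given here after their values were seen, were not called. Neutrophil elastase (ELANE) had 316 and 292 TPM in the NC samples against 433 and 505 TPM after knockdown (log2 fold change 0.62, SE 0.134, limma adjusted p 0.0586). Proteinase 3 (PRTN3) had 929 and 882 TPM in the NC samples against 569 and 683 TPM after knockdown (-0.54, SE 0.138, limma adjusted p 0.0818). Cathepsin G (CTSG), a serine protease of the granules despite its name, had 756 and 763 TPM in the NC samples against 435 and 572 TPM after knockdown (-0.61, SE 0.158, limma adjusted p 0.0845).

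CST3 (ENSG00000101439) encodes cystatin C and is located at chr20:23626706-23638473 (minus strand). CST3 had the highest level of the 8 genes in NC, with 943 and 981 TPM, and 882 and 1845 TPM in sh-ANP32B. The sh-ANP32B replicates differed by 1.06 on the log2 scale, and replicate 1 lay below both NC samples while replicate 2 lay above both. The mean went from 962 ± 26.7 to 1364 ± 681 TPM (SD, n = 2 each), which on the log2 scale is a difference of 0.41 ± 0.314 (SE) with an adjusted p of 0.482 by limma. Without sh-ANP32B replicate 1 the log2 fold change was 0.94 and without replicate 2 it was -0.12, so that the direction of CST3 rested on a single sample.

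The level of the inhibitor was set beside that of its target family. CST3 had 1.03 and 1.09 times the summed level of the 5 papain-family genes in NC, and 0.744 and 1.40 times that sum in sh-ANP32B. The sh-ANP32B ratios lay on either side of NC. The papain-family sum itself was 917 and 896 TPM in the NC samples against 1185 and 1316 TPM after knockdown, with no overlap between the groups.

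Of 12 other cystatins 3 were tested, of which 0 were called higher and 1 was called lower. CST7, cystatin F, an immune cell cystatin that reaches the lysosome and inhibits CTSC, had 107 and 93.2 TPM in the NC samples against 54.0 and 55.1 TPM after knockdown (log2 fold change -0.86, SE 0.139, limma adjusted p 0.0399). Both sh-ANP32B samples were below both NC samples, whereas its target CTSC was not called. The call of CST7 was lost without NC replicate 1 and without NC replicate 2. The other two, named after their values were seen, were not called. The cytosolic cystatin CSTB had 147 and 142 TPM in the NC samples against 199 and 269 TPM after knockdown (log2 fold change 0.67, SE 0.168, limma adjusted p 0.0776), and the related CSTA had a log2 fold change of 0.18 (SE 0.126).

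The 2 sh-ANP32B samples did not differ from NC to the same extent. In the plot of replicate differences CST3, CTSD, CTSH, CTSZ, CTSB and CTSA were higher in replicate 2 than in replicate 1, by 1.06, 0.45, 0.43, 0.42, 0.20 and 0.20 on the log2 scale. CTSC and CTSS were lower in replicate 2, with differences of -0.13 and -0.41. Across 15427 tested genes the difference between these replicates ran with transcript GC content (Spearman rho 0.577), a description of the libraries, since genes are not independent replicates and share both samples. CTSC and CTSS had the lowest GC content of the 8 genes, 39.2% for each, and CTSD the highest, 64.0%. The order of the 8 genes did not follow GC content throughout, since CST3, with the largest replicate difference, had the next lowest GC content, 45.9%, and CTSZ had 47.9%, both below CTSB (51.3%), CTSA (53.6%) and CTSH (56.0%). After correction for GC content CTSA, CTSB, CTSD and CTSS were called, with log2 fold changes of 0.82, 0.63, 0.70 and 0.65, and CST3 was not, at 0.37. With that correction 1173 of 15427 genes were called higher and 1389 lower, against 360 and 199 of 16817 without it.

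**Figure D4:**
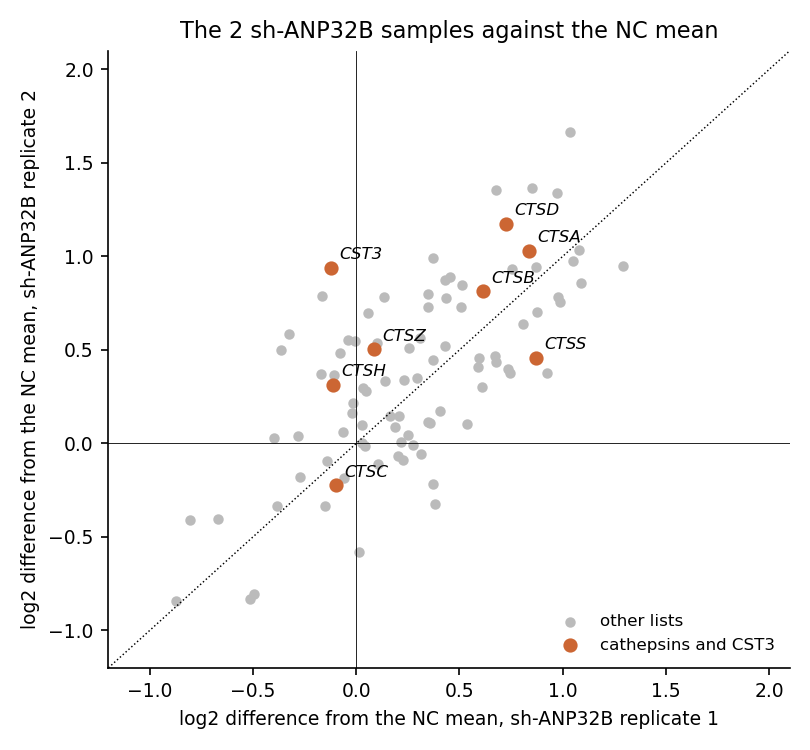
Difference from the NC mean in sh-ANP32B replicate 1 (x axis) and replicate 2 (y axis), in log2(TPM + 1) units, for the 8 genes (orange) and the genes of the other lists (grey), with equality as a dotted line. CTSA, CTSB, CTSD, CTSS and CTSZ lie above 0 on both axes, and CST3 lies at -0.12 and 0.94.

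Other cathepsins and lysosomal genes were taken from lists. Over all other lists, 85 of 113 genes had values and all 85 were tested, of which 11 were called higher and 1 lower, against 2.14% and 1.18% of all tested genes. Their median log2 fold change was 0.27. The count of genes called higher moved with each sample left out, as did the count over all genes, both given below. Among 7 other cathepsins 3 were tested and 0 were called by limma, although all 3 had an unadjusted p under 0.05. These were CTSO, a papain-family protease named after its value was seen, with a log2 fold change of 1.01, CTSG, given above, and CTSK, a collagen-degrading cysteine protease, at 3.05 and 2.64 TPM in the NC samples against 8.38 and 6.41 TPM after knockdown (log2 fold change 1.12, SE 0.250, limma adjusted p 0.0621).

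Of 6 other lysosomal peptidases all were tested and 1 was called higher. This was TPP1, a tripeptidyl peptidase, with 154 and 157 TPM in the NC samples against 332 and 283 TPM after knockdown (log2 fold change 0.97, SE 0.133, limma adjusted p 0.0323). Of 31 other lysosomal hydrolases and activators 29 were tested, of which 5 were called higher and 0 lower, with a median log2 fold change of 0.46. GAA, the glycogen-degrading alpha-glucosidase, had 152 and 147 TPM in the NC samples against 294 and 381 TPM after knockdown (log2 fold change 1.16, SE 0.156, limma adjusted p 0.0323). FUCA1, the alpha-fucosidase, had 96.4 and 94.8 TPM in the NC samples against 203 and 197 TPM after knockdown (log2 fold change 1.06, SE 0.122, limma adjusted p 0.0261). PLA2G15, a lysosomal phospholipase, and IDS, iduronate sulfatase, had log2 fold changes of 0.91 and 0.88 (limma adjusted p 0.0408 and 0.0426).

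Of 14 lysosomal membrane proteins 13 were tested and 1 was called higher, LAPTM4A, with 59.7 and 67.5 TPM in the NC samples against 117 and 104 TPM after knockdown (log2 fold change 0.79, SE 0.143, limma adjusted p 0.0441). Of 15 genes that sort lysosomal enzymes 14 were tested and 1 was called higher, SORL1, a sorting receptor, with 94.2 and 103 TPM in the NC samples against 173 and 154 TPM after knockdown (log2 fold change 0.72, SE 0.135, limma adjusted p 0.0454). No gene of either list was called lower. At an unadjusted p under 0.05 by limma, 6 membrane protein genes were higher and 1 was lower, and 4 sorting genes were higher and 0 lower. The lower one was OSTM1, named after its value was seen, with a log2 fold change of -0.67.

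**Figure D5:**
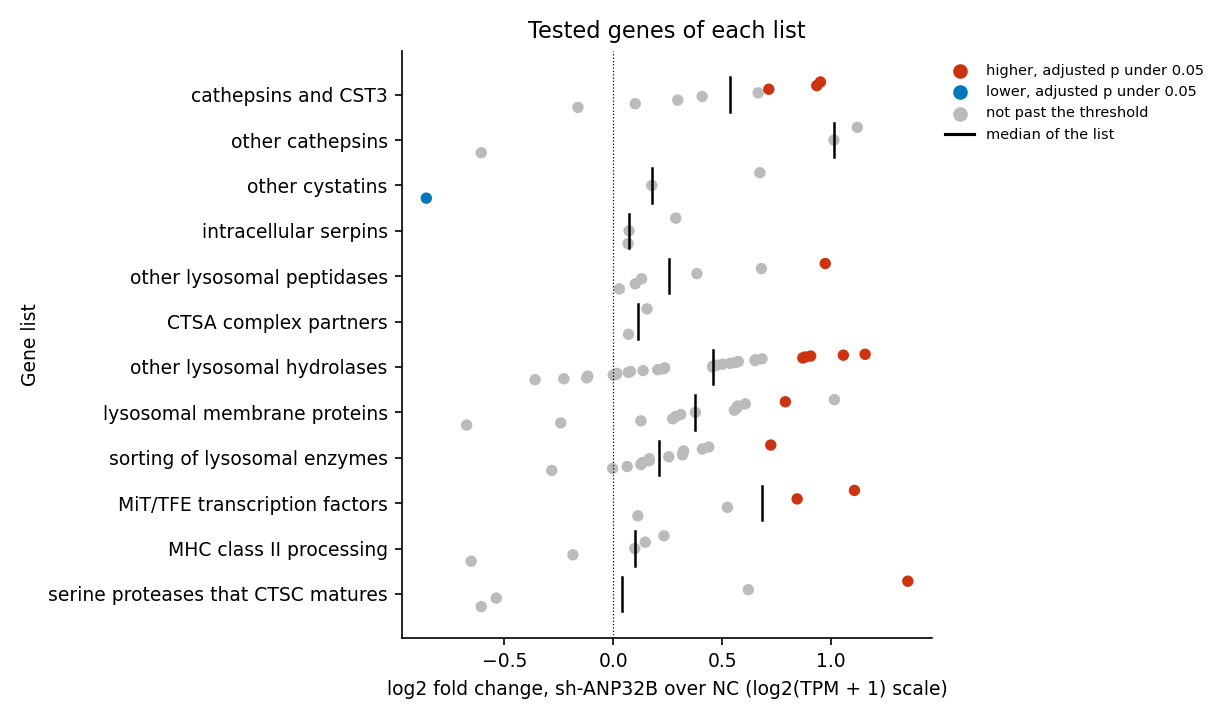
Log2 fold changes, sh-ANP32B over NC, of the tested genes in each list, with genes called higher in red, genes called lower in blue, other genes in grey and the median of each list as a black bar. CST7 at -0.86 is the single gene called lower, and the called cathepsins lie between 0.71 and 0.95.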

How the data were processed

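RNA of Kasumi-1 cells was sequenced in 2 NC and 2 sh-ANP32B samples. Per the methods and the submitters' processing notes, the authors aligned reads to hg38 with HISAT2 2.0.5. The deposited values are TPM, as judged from decimals and sums of 997812 to 998314 per sample, and the program, annotation and filters behind them are not given in the sources used here. Depth is therefore unknown. Symbols and positions came from GENCODE v44 (hg38), which matched 16986 of 18567 gene IDs, and promoters from RefSeq.

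Genes that reached 1 TPM in 2 or more samples entered the fit, and log2(TPM + 1) values were compared with limma 3.58.1 (abundance trend, no block, R 4.3.3), two-sided, with Benjamini-Hochberg adjustment over 16817 genes. DESeq2, used in the study, needs counts and was not run. The fit was tested on simulated data. Summaries used Python 3.11.15.

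The members and lists were chosen with earlier results of these data known. All members are named, with up to 4 called genes of each other list, or its 1 or 2 most abundant. Alternatives were other scalings, filters, a pseudocount of 0.1, no trend, a GC correction, replicate blocks, an adjusted p under 0.1 and leaving out each sample. Proteins were not compared, since protein sequences were not used here. The result of 1 marker list is not reported here.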

Additional observations from a re-analysis of the deposited data

How the results depend on the processing

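Calls near the threshold moved with the setting, while few directions did. Of the 3 cathepsins called higher, 1 stayed called after median-of-ratios scaling, 1 after upper-quartile scaling and 0 without the abundance trend, where all 4 genes past the study's criterion still passed it. CTSH turned to -0.058 with GC correction and to -0.058 with the replicate block added to it, and leaving out 1 sample moved it between -0.111 and 0.314 and CST3 between -0.124 and 0.94. The cause was not tested. ANP32B had a log2 fold change of -3.04 without the trend (limma adjusted p 0.0929, against 9.4e-42 to 0.0929 over 12 alternatives). The lowest of these came from the replicate block, which leaves 1 residual degree of freedom, so its size is not a reliable measure.

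Same-numbered samples did not deviate together across genes (Pearson r -0.0925, Spearman rho -0.168). With a single deviation per group, these values cannot decide whether same-numbered samples were prepared together. With the replicate block 4 of the 8 genes were called higher, CTSS being the added one (limma adjusted p 0.0322), 2 genes of the other lists were called lower, and of all genes 982 were called higher and 491 lower. With crossed pairing, added after seeing the data, 4 of the 8 genes, 26 higher and 3 lower genes of the other lists, and 1271 higher and 724 lower genes of all were called.

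Of the other lists, with 11 genes higher and 1 lower as reported, 6 were higher after median-of-ratios scaling, 7 after quantile normalization, 0 higher and 0 lower without the trend, 24 and 4 with GC correction, 17 and 3 with GC correction and the replicate block, and 22 and 3 at an adjusted p under 0.1. Of all genes, with 360 higher and 199 lower as reported, 230 were higher and 288 lower after median-of-ratios scaling, 244 and 234 after quantile normalization, 256 and 231 after upper-quartile scaling, 0 and 0 without the trend (3701 at an unadjusted p under 0.05), 1173 and 1389 with GC correction, 709 and 910 with GC correction and the replicate block, and 1043 and 628 at an adjusted p under 0.1. The median log2 fold change over all genes was 0.0827 as reported, 0.001 after median-of-ratios scaling and -0.0089 with GC correction.

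Leaving out each sample leaves 1 sample in a group, assumed to vary like the other group, and 1 residual degree of freedom. Over these fits 0 to 6 of the 8 genes were called higher, 3 to 5 passed the study's criterion, 3 to 40 genes of the other lists were higher and 0 to 4 lower, and 214 to 2451 of all genes were higher and 59 to 1628 lower. The median log2 fold change of the 8 genes ranged from 0.35 to 0.66, the log2 ratio of their sum from 0.35 to 0.89, and that of ANP32B from -3.20 to -2.88.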

Other observations

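Of 6 MHC class II processing genes, whose products meet the cathepsins in the antigen-loading compartment, 5 were tested. By limma 0 were called, and the median log2 fold change of these 5 genes was 0.10. HLA-DRA, named after its value was seen, was lower at an unadjusted p under 0.05. It had 3.95 and 4.3 TPM in the NC samples against 2.63 and 1.93 TPM after knockdown (log2 fold change -0.65). The invariant chain CD74, a substrate of CTSS, had 952.5 and 870.0 TPM in the NC samples against 900.0 and 1056 TPM after knockdown (log2 fold change 0.10, SE 0.137, limma adjusted p 0.715). The lysosomal thiol reductase IFI30 had 93.5 and 92.9 TPM in the NC samples against 111 and 96.1 TPM after knockdown (log2 fold change 0.15, SE 0.137, limma adjusted p 0.568).

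Of 7 intracellular serpins, which inhibit lysosomal or granule proteases that leak into the cytosol, 3 were tested and 0 were called by limma, and 0 had an unadjusted p under 0.05. SERPINB1, an inhibitor of neutrophil elastase and cathepsin G, had 118 and 127 TPM in the NC samples against 162 and 138 TPM after knockdown (log2 fold change 0.29, SE 0.139, limma adjusted p 0.268). SERPINB6 differed by 0.07 ± 0.135 (log2, SE) with a limma adjusted p of 0.794.

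Among 9735 other tested genes with a mean of at least 10 TPM, the 3 whose differences from the NC mean lay closest to the average profile of the 8 genes were ATP6V1G1, MGLL and ADGRE5, at Euclidean distances of 0.0241, 0.0326 and 0.0345 log2 units over the 4 samples. That average was 0.35 in sh-ANP32B replicate 1 and 0.63 in replicate 2.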
